A study of Mus musculus with 24 samples.

Results

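The immediate-early genes Fos, Fosb, Jun, Junb, Jund, Egr1, Egr2, Atf3, Ier2 and Nr4a1, were followed in CD31-sorted endothelial cells of the mouse brain. They were taken by gene symbol, 10 of the 53465 genes in the deposited table, and all 10 were among the 15493 genes with enough reads to be tested. The cells came from 12 control mice, Bmal1fl/fl, and 12 mutant mice, Bmal1fl/fl; Tie2-cre, all labelled as strain C57BL/6J, so that every mouse carried the floxed Bmal1 allele and the mutants alone carried the recombinase. Tie2-cre acts wherever Tie2 has been expressed, which takes in the endothelium and also blood-forming cells. Every 4 h from ZT2 to ZT22, 2 mice of each genotype were taken, with 1 library per mouse, where ZT0 is lights on in a 12 h light and 12 h dark cycle. Male and female mice were used, and neither sex nor age was given per library. Each brain was minced, digested with collagenase and DNase while warm, depleted of myelin and of CD90-positive cells, and sorted, and RNA was extracted only after these steps, which took several hours.

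Immediate-early genes are transcribed within minutes of a stimulus, without new protein being made first, when MAP kinases and calcium signals act on transcription factors already bound at their promoters, above all SRF with its TCF partners and CREB. Fos, Fosb, Jun, Junb, Jund and Atf3 encode bZIP proteins that pair with each other as AP-1 and related dimers, Egr1 and Egr2 encode zinc-finger factors, Nr4a1 encodes an orphan nuclear receptor, and Ier2 encodes a small nuclear protein. Their transcripts are short-lived, and they are widely known to rise in cells while a tissue is being dissociated. No library of undissociated tissue was analysed here, so the part of these levels that arose in the living brain and the part that arose during isolation cannot be told apart. Nor can a change in the number of cells of a type be told apart from a change in RNA per cell in such pooled cells.

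The promoters of 4 members are shown because their motifs are those of the factors named above. They are the 250 bases before the start site, from RefSeq on GRCm38.p6, written in the direction of the gene. In Fos (chr12:85473640-85473889, plus strand), Fosb (chr7:19310046-19310295, minus strand) and Nr4a1 (chr15:101266596-101266845, plus strand) the capitals mark TGACG, the core of the cAMP response element, or its reverse complement, and in Egr2 (chr10:67537316-67537565, plus strand, at one of its RefSeq starts) they mark a CArG box, the motif of SRF.
Fos: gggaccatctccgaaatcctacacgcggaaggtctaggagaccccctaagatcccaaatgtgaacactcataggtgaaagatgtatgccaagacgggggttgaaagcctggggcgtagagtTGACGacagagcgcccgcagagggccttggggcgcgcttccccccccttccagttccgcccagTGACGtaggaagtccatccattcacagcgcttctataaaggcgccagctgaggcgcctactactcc
Fosb: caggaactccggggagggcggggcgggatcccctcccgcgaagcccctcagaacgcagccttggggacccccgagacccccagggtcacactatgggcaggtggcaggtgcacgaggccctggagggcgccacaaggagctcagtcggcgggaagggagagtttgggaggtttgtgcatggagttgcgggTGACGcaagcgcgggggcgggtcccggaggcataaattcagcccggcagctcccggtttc
Nr4a1: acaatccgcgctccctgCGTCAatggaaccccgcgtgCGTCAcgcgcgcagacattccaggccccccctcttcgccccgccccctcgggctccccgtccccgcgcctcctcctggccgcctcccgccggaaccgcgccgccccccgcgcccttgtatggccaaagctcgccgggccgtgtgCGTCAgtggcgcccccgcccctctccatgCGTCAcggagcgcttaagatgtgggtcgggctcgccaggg
Egr2: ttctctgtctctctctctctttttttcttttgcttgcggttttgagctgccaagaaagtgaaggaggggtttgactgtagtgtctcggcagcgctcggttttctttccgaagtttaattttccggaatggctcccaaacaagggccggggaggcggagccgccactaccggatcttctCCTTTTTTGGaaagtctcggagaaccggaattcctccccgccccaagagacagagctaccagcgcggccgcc
TGACG on either strand lay in the upstream window of 6 of the 8 members with a window here, Atf3, Egr2, Fos, Fosb, Junb and Nr4a1, and in 19.8% of 27025 genes, a gene being counted when the window of any of its starts held it. For Egr2 that was another start than the one printed. Fos held 2 copies, Nr4a1 held 4 and Fosb held 1. The CArG box was found in Egr2 among these 8, and in 1.62% of genes. Members without a window were not searched for any motif. GCGNGGGCG, the motif of EGR proteins, was found in Fosb and Nr4a1 and in 5.33% of genes. The full cAMP response element TGACGTCA was in none of the 8 and in 1.77% of genes, and the AP-1 site TGANTCA in none of the 8 and in 7.82% of genes. These matches describe letters in a window and not binding, and a missing match says only that the letters are not in that window.

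All 10 genes were read in every library. Per kilobase of annotated exon, Jun was the highest member, with 3981 ± 1090 reads in controls and 4938 ± 1270 in mutants (SD, n = 12 each), and it ranked 26th among the genes that passed the filter. Fos followed with 2875 ± 1470 and 3276 ± 1440 reads per kilobase and ranked 41st. Jun was above Fos in 23 of 24 libraries and Fos above Egr1 in all 24. Egr1, Ier2 and Junb came next, with 1676, 1579 and 1444 reads per kilobase over all libraries. The order of Egr1 and Ier2 did not hold beyond their spread, with a mean log2 ratio of 0.027 (SD 0.418), and Ier2 was above Junb in 18 of 24 libraries. Atf3, Jund and Fosb lay at 1027, 973.4 and 972.0 reads per kilobase and could not be ordered, their neighbouring log2 ratios being -0.089 (SD 0.681) and 0.186 (SD 0.644). Nr4a1 followed with 666.7 reads per kilobase. Egr2 was by far the lowest, with 92.1 reads per kilobase and rank 2802, below Nr4a1 in all 24 libraries. Together the members took a median of 0.415% of a library's reads at ZT2 and ZT14, 0.958% at ZT6 and ZT18 and 0.860% at ZT10 and ZT22.

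Facts of the whole series that touch these genes were as follows. Library totals after the authors' normalization lay between 6136404 and 6648311 reads. The mutant libraries outside ZT6 and ZT18, and the control libraries of ZT14 and ZT22, carried a different i5 index from all others. The 8 libraries of ZT6 and ZT18 carry consecutive library numbers in their titles, so time of day and library numbering cannot be told apart for them. Those 8 libraries stood apart in composition. The summed reads of 10 microglia markers lay between 1484 and 2606 there and between 13303 and 35335 in the other 16, and 10 endothelial markers summed to 125995 to 133195 against 84714 to 117516. Mitochondrially encoded reads made up 2.68% to 3.90% there and 5.78% to 17.4% elsewhere. Arntl, the targeted gene, had 81 to 354 reads in mutants and 1 to 468 in controls, but a count over the whole gene takes in exons outside the floxed one and does not check the deletion. Where nothing else is said, values are deposited reads per gene, and each p is from edgeR's quasi-likelihood test, adjusted by Benjamini-Hochberg over 15493 genes.

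Most members differed with the time of collection. Fos, the first-described partner of Jun in AP-1, was low at ZT2 and ZT14 and high at ZT6 and ZT18. Control mice had 3307 and 2576 reads at ZT2 with 3426 and 2675 at ZT14, then 9750 and 10156 at ZT6 with 10270 and 10551 at ZT18, and finally 7163 and 7149 at ZT10 with 10726 and 3402 at ZT22. Mutant mice had 5101 and 2844 reads at ZT2 with 3447 and 3756 at ZT14, then 9617 and 9251 at ZT6 with 11649 and 11501 at ZT18, and finally 11536 and 5113 at ZT10 with 9045 and 9600 at ZT22. All 8 libraries of ZT6 and ZT18 were above all 8 of ZT2 and ZT14, whereas ZT10 and ZT22 spread from 3402 to 11536. The low and high times were the same in both genotypes.

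**Figure D1:**
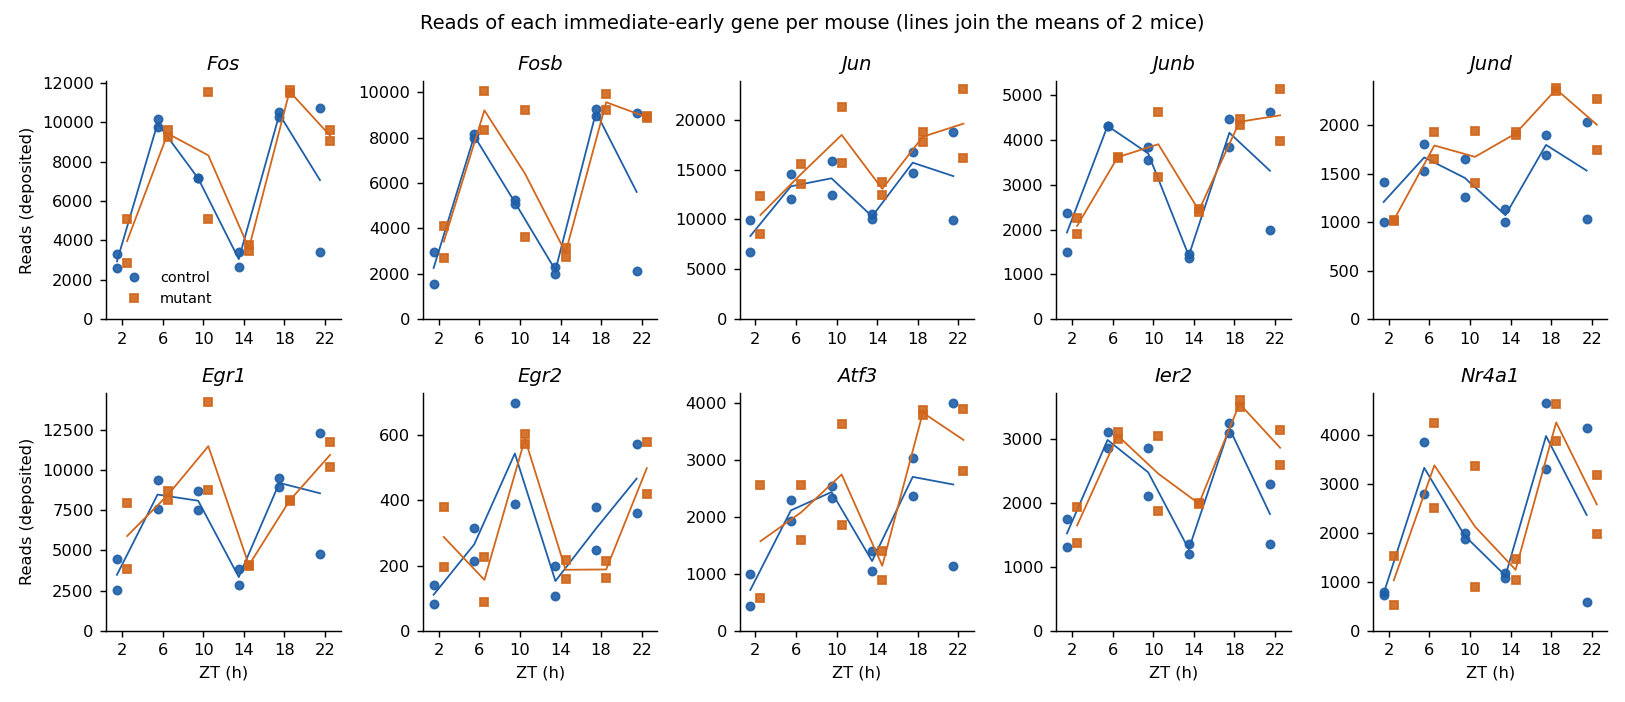
Deposited reads (vertical axes from 0) of the 10 immediate-early genes against ZT in hours, with 1 point per mouse, circles for controls, squares for mutants, and lines through the mean of 2 mice. Fos, Fosb, Junb, Ier2 and Nr4a1 show low points at ZT2 and ZT14 and high points at ZT6 and ZT18, while Egr2 peaks at ZT10 and ZT22.

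ZT6 and ZT18 were then compared with the other 4 time points. Of the members, 7 were higher, against 7.21% of all genes tested (1117 of 15493), and none was lower. Nr4a1 was 2.46-fold higher (SE 0.213 on the log2 scale, adjusted p = 2.59e-05, edgeR), Fosb 2.20-fold (log2 1.14 ± 0.158 SE, adjusted p = 1.84e-06) and Fos 2.01-fold (adjusted p = 1.05e-06). Ier2 rose 1.64-fold, Junb 1.52-fold, Egr1 1.37-fold and Jund 1.31-fold, with adjusted p-values of 2.96e-06, 0.000183, 0.0208 and 0.0103 by edgeR. The members that did not pass were Atf3 (log2 0.56, adjusted p = 0.0611 by edgeR), Jun (log2 0.24, adjusted p = 0.102) and Egr2 (log2 -0.42, adjusted p = 0.218). Atf3 was called with the replicate block (adjusted p = 0.0224), with no scaling (0.0298), with no filter (8.70e-10) and without any one of control ZT14 replicate 1, control ZT22 replicate 1, mutant ZT2 replicate 1 and mutant ZT6 replicate 2. Jun was called with no scaling (adjusted p = 0.0428), with no filter (0.00377) and without control ZT22 replicate 1 (0.0487), and Egr2 was called lower with no filter (adjusted p = 0.0305), all by edgeR. With no filter the fitted log2 values were 0.57 for Atf3, 0.25 for Jun and -0.41 for Egr2, close to those of the main fit. In the main fit the median over the members was 0.579 on the log2 scale, beside 0.00669 over all genes. With the i5 index of each library as a covariate, 4 members were called, all higher, beside 90 genes called higher and 505 lower of 15493. Junb, Jund and Ier2 were not called in that fit (adjusted p = 0.226, 0.914 and 0.141 by edgeR). The fitted value of Egr2 turned to 0.34 on the log2 scale there (adjusted p = 0.759 by edgeR). Egr1 was no longer called without control ZT6 replicate 1 (adjusted p = 0.0613) or without control ZT18 replicate 2 (adjusted p = 0.0552).

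**Figure D2:**
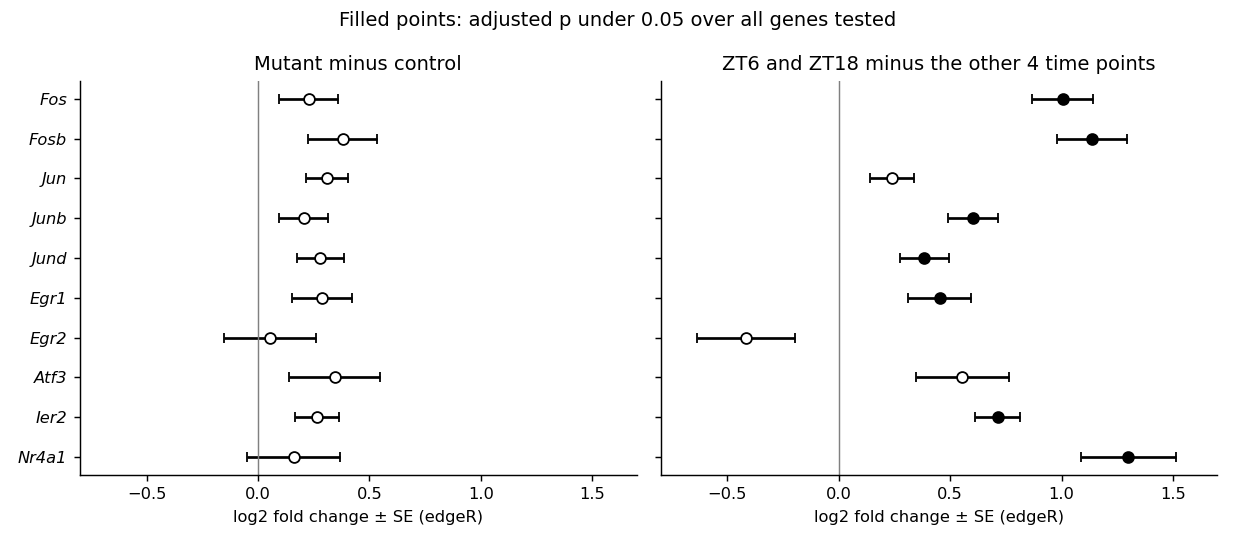
Log2 fold change ± SE from edgeR for each member, mutant minus control on the left and ZT6 and ZT18 minus the other 4 time points on the right. Filled points passed an adjusted p of 0.05, which holds for 7 members on the right and for none on the left, where all 10 lie above 0.

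Nr4a1, a nuclear receptor induced by growth factors and calcium, had the largest SD over the 24 libraries (1.02 on the log2 scale). Its reads lay between 2513 and 4649 at ZT6 and ZT18 (median 3858.5, n = 8), between 530 and 1527 at ZT2 and ZT14 (median 1052), and between 592 and 4132 at ZT10 and ZT22 (median 1990). The ZT6 and ZT18 libraries did not overlap with those of ZT2 and ZT14. The same was true of Fosb, a close relative of Fos, with 7974 to 10072 reads (median 9082.5) against 1555 to 4122 (median 2733). Its range at ZT10 and ZT22 was 2141 to 9207 reads (median 7047). Ier2 ran from 2869 to 3607 at ZT6 and ZT18 and from 1197 to 1998 at ZT2 and ZT14, and Junb, an AP-1 member that often restrains Jun, from 3608 to 4480 and from 1377 to 2464. In all, 5 members (Fos, Fosb, Junb, Ier2 and Nr4a1) had every ZT6 and ZT18 library above every ZT2 and ZT14 library, against 0.775% of genes tested. Against the whole of the other 16 libraries no member was wholly separate, and 0.194% of genes were. ZT2 and ZT14, like ZT10 and ZT22, were put together because they lie 12 h apart, after the values had been seen, so these ranges are a description.

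The reads of Jun, the founding member of the AP-1 family, differed less. They lay between 12081 and 18795 at ZT6 and ZT18 (median 15111.5), between 9927 and 23076 at ZT10 and ZT22 (median 15991) and between 6756 and 13731 at ZT2 and ZT14 (median 10313.5). The ratio of Fos to Jun moved with time accordingly. On the log2 scale, it averaged -0.57 (SD 0.14, n = 8) at ZT6 and ZT18, -1.11 (SD 0.335) at ZT10 and ZT22 and -1.64 (SD 0.245) at ZT2 and ZT14, and the first and last of these did not overlap. Jund, the AP-1 member that most cells express without a stimulus, had the smallest SD over the 24 libraries (0.414 on the log2 scale), with medians of 1853 reads at ZT6 and ZT18, 1697 at ZT10 and ZT22 and 1081 at ZT2 and ZT14. Atf3, a stress-induced repressor of the ATF family, had medians of 2469, 2681.5 and 1027 reads in the same order, with ranges that overlapped throughout.

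Egr1 and Egr2 did not share one pattern. Egr1 had 7575 to 9487 reads at ZT6 and ZT18 (median 8446.5), 4803 to 14241 at ZT10 and ZT22 (median 9461) and 2521 to 7929 at ZT2 and ZT14 (median 3962). Egr2 had 87 to 378 reads at ZT6 and ZT18 (median 219.5), 360 to 699 at ZT10 and ZT22 (median 573) and 81 to 379 at ZT2 and ZT14 (median 177). Within each genotype, described without a test, Egr2 stood as follows. In controls its 4 libraries of ZT6 and ZT18 had 214 to 378 reads (median 282.5), and those of ZT2 and ZT14 had 81 to 199 (median 123). In mutants these ranges were 87 to 225 reads (median 188) and 158 to 379 (median 206). In both genotypes every library of ZT10 and ZT22 but 1, a control with 360 reads, was above all of ZT6 and ZT18. The share of all genes with ranges apart within a genotype was not counted. The interaction of genotype with ZT6 and ZT18, given below, called no member. The log2 ratio of Egr2 to Egr1 reads averaged -5.31 (SD 0.583) at ZT6 and ZT18, -4.57 (SD 0.309) at ZT2 and ZT14 and -4.19 (SD 0.373) at ZT10 and ZT22. Markers of microglia were far lower at ZT6 and ZT18, as given above, and their part in the Egr2 reads was not tested.

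Among the 16 libraries outside ZT6 and ZT18, time was tested as a factor across ZT2, ZT10, ZT14 and ZT22. With time, 8 members differed, against 1.54% of all genes tested (238). The adjusted p-values, by edgeR's quasi-likelihood F test, were 0.000208 for Fos, 0.000275 for Egr1, 0.000346 for Junb, 0.00101 for Fosb, 0.00383 for Egr2, 0.00444 for Jun, 0.0285 for Atf3 and 0.0432 for Ier2. Nr4a1 and Jund did not pass (adjusted p = 0.0684 and 0.199). Leaving out any 1 of the 24 libraries left between 6 and 10 members called, and between 136 and 287 genes. Without the 3 libraries whose numbers lie apart from the rest (control ZT2 replicate 1 and both of mutant ZT14) there were 6 members and 144 genes.

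The 6 pairs of these 4 time points, 4 mice at each, were compared after the data had been seen. ZT10 was above ZT2 for Fos, Jun, Junb, Egr1 and Egr2, 5 members against 0.381% of genes called higher, with Egr2 2.90-fold up (log2 1.54 ± 0.356, adjusted p = 0.0368 by edgeR) and Fos 2.30-fold (log2 1.20 ± 0.231, adjusted p = 0.00596). ZT10 was above ZT14 for Fos, Fosb, Junb, Egr1 and Egr2, again 5 members against 0.284% of genes, led by Egr2 at 3.21-fold (log2 1.68, adjusted p = 0.0220) and Egr1 at 2.52-fold (log2 1.33, adjusted p = 0.0127). In controls the libraries of ZT10 and ZT14 carried different i5 indices. With that index as a covariate, 3 members were called between ZT10 and ZT14, beside 34 genes called higher. ZT22 was above ZT14 for the same 5 members as ZT10 was, against 0.271% of genes, with Egr2 2.71-fold up (log2 1.44, adjusted p = 0.0323), Fosb 2.69-fold (log2 1.43, adjusted p = 0.00339) and Egr1 after them (log2 1.32, adjusted p = 0.00183). ZT22 against ZT2 gave no member past the adjusted threshold and 0% of genes called higher or lower, by edgeR. All 10 members had an unadjusted p under 0.05 there, against 5.85% of genes, and log2 differences of 0.56 to 1.48. DESeq2 called 5 of them in that pair, against 0.869% of the 2878 genes to which it gave an adjusted p, and edgeR called 5 with the replicate block, of 7 genes called among 15493, and 4 when only genes with 10 or more reads in every library were tested, of 4 called among 9863.

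**Figure D3:**
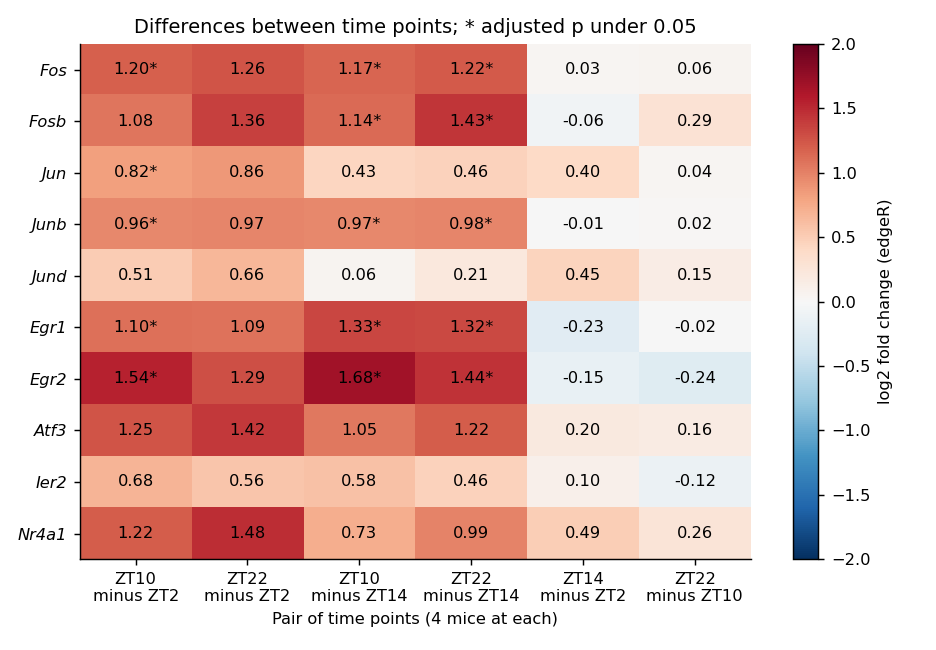
Log2 fold change (colour and printed value) of each member between the 4 time points outside ZT6 and ZT18, one column per pair, 4 mice at each time point. Stars mark an adjusted p under 0.05 by edgeR, and ZT22 minus ZT2, ZT14 minus ZT2 and ZT22 minus ZT10 hold no star.

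Between time points 12 h apart no member passed adjustment in the main edgeR fit or by DESeq2. With no filter on low reads, edgeR called 2 members higher at ZT14 than at ZT2 (260 genes in all). That setting also called 1 member lower at ZT6 than at ZT18 (70 genes), and 0 between ZT22 and ZT10 (123 genes). ZT14 against ZT2 gave 0 of 10 members by edgeR and by DESeq2, against 0.942% of genes called by edgeR, and 2 members with an unadjusted p under 0.05 (Jun, log2 0.40, and Jund, log2 0.45), against 8.66%. ZT22 against ZT10 gave 0 of 10 by both tools, against 0.136% of genes, and 0 at an unadjusted p under 0.05, against 4.88%. ZT6 against ZT18 gave 0 of 10 by both tools, against 0.0258% of genes, and again 0 unadjusted, against 5.41%. The largest fitted differences were -0.62 for Atf3 at ZT6 against ZT18 and 0.49 for Nr4a1 at ZT14 against ZT2, and with 4 mice at a time point these comparisons were not precise. The SE of the Fos difference between ZT6 and ZT18 was 0.228 on the log2 scale and that of Nr4a1 was 0.36, so that values which did not pass are not shown to be equal.

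The counts of members in a single pair rested on few libraries. Without mutant ZT2 replicate 2, or without mutant ZT10 replicate 1, no member was called between ZT10 and ZT2, and 43 genes were in either case, where 66 had been. Without control ZT14 replicate 2, none was called between ZT10 and ZT14, and genes called there fell from 106 to 7. Without the 3 libraries whose numbers lie apart, which include both mutant ZT14 libraries, 1 member was called between ZT10 and ZT14 (59 genes in all), 1 between ZT22 and ZT14 (128 genes) and 3 between ZT10 and ZT2 (55 genes). Without control ZT22 replicate 2, 9 members were called between ZT22 and ZT2 (30 genes) and 9 between ZT22 and ZT14 (190 genes). With any 1 of the 24 libraries left out, the fitted difference of Fos stayed between 0.97 and 1.41 for ZT10 against ZT2 and between 0.94 and 1.35 for ZT10 against ZT14 on the log2 scale, and that of Egr2 between 1.25 and 2.06 and between 1.51 and 1.83.

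Mice of the same group differed most in the members at 3 points. Control ZT22 replicate 1 had 4132 reads of Nr4a1 and replicate 2 had 592, a ratio of 6.98, and Fosb had 9077 and 2141 reads. Every member was higher in replicate 1. In mutants at ZT10, Nr4a1 had 3364 and 884 reads, Fos 11536 and 5113, and Fosb 9207 and 3623, and all 10 members were again higher in replicate 1, Egr2 by the least (604 and 573). In mutants at ZT2, Atf3 had 2569 and 582 reads and Egr1 7929 and 3872, while Jund had 1015 and 1024. The SD between mice of a group, on the log2 scale, was 0.82 for Nr4a1, 0.711 for Atf3, 0.566 for Fosb, 0.538 for Egr2 and 0.469 for Fos. It was 0.28 for Ier2 and 0.282 for Jund, the lowest of the members, beside a median of 0.507 over all genes tested and 0.225 over the 4339 genes at least as abundant as the lowest member.

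Mitochondrially encoded reads were the lower in the mouse with the higher members at 2 of these points and the higher at the other. Their share was 7.07% in control ZT22 replicate 1 and 11.9% in replicate 2, and 5.78% in mutant ZT10 replicate 1 and 9.20% in replicate 2, but 14.3% in mutant ZT2 replicate 1 and 12.7% in replicate 2. Over the 8 libraries of ZT10 and ZT22, Fos fell as this share rose, with a Pearson r of -0.945 (exact permutation p = 0.000719, 0.00647 adjusted over 9 relations) and a Spearman rho of -0.881 (exact p = 0.00724, adjusted 0.0652). Without the 2 libraries farthest from the median share, r was -0.674. Within ZT2 and ZT14 and within ZT6 and ZT18 no such relation was seen, with r of 0.287 and 0.123 (exact permutation p = 0.496 and 0.799). The summed microglia markers showed no relation past the threshold with Fos within any of these sets, with r of 0.312 at ZT2 and ZT14, 0.429 at ZT6 and ZT18 and -0.328 at ZT10 and ZT22, and exact adjusted p of 0.638 in each. For the pericyte and smooth muscle markers r was -0.576, 0.175 and 0.706 in the same order, with exact adjusted p of 0.398, 0.77 and 0.216. The part of RNA quality or cell composition in these differences was not tested.

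**Figure D4:**
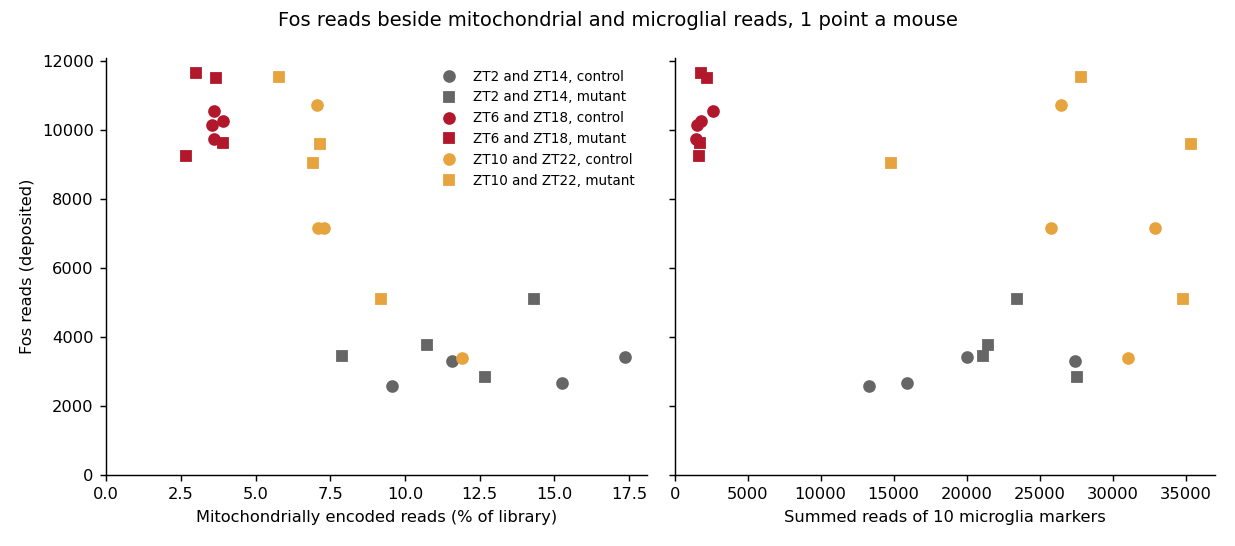
Fos reads against the percentage of mitochondrially encoded reads (left) and against the summed reads of 10 microglia markers (right), with 1 point per mouse, colours for time points 12 h apart, circles for controls and squares for mutants. On the left the 8 libraries of ZT10 and ZT22 fall from 11536 to 3402 reads as the share goes from 5.78% to 11.9%, and on the right the 8 of ZT6 and ZT18 sit at the far left.

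Members other than Egr2 moved together from mouse to mouse most clearly at ZT10 and ZT22. These correlations were taken on log2 CPM, the reads scaled to the library total corrected by TMM. Within ZT10 and ZT22, all 45 pairs of members had a positive Pearson r (median 0.873, n = 8). After adjustment over the 45 by exact permutation, 35 pairs passed, and 29 by Spearman's rho. Over all pairs of the 4339 genes at least as abundant as the lowest member, the median r in the same libraries was 0.0202 and 51.8% of pairs were positive. Fos and Fosb had r = 0.984 and rho = 0.976 (exact adjusted p = 0.00195 and 0.00595), and r was 0.92 without the 2 mice farthest from the median of Fos. Pairs with Egr2 had a median r of 0.441, and none of these 9 pairs passed. Within ZT2 and ZT14 all 45 pairs were positive, with a median r of 0.662, and 6 passed by r and 0 by rho, led by Fosb and Egr1 (r = 0.941, exact adjusted p = 0.0342). Pairs with Egr2 had a median r of 0.647 there and 2 of them passed by r, while pairs with Jund had a median of 0.276 and 0 passed. Within ZT6 and ZT18, 39 of 45 were positive, with a median r of 0.525, and 0 passed. Over all pairs of the 4339 genes, 51% were positive at ZT2 and ZT14 and 50.3% at ZT6 and ZT18. Leaving out the 2 mice farthest from the median lowered the members' median r to 0.733 at ZT10 and ZT22, with 39 of 45 pairs positive, to 0.416 at ZT2 and ZT14, with 40 positive, and to 0.384 at ZT6 and ZT18, with 30 positive. Over the 16 libraries of ZT2, ZT10, ZT14 and ZT22 the median r was 0.856, which includes the difference between time points.

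**Figure D5:**
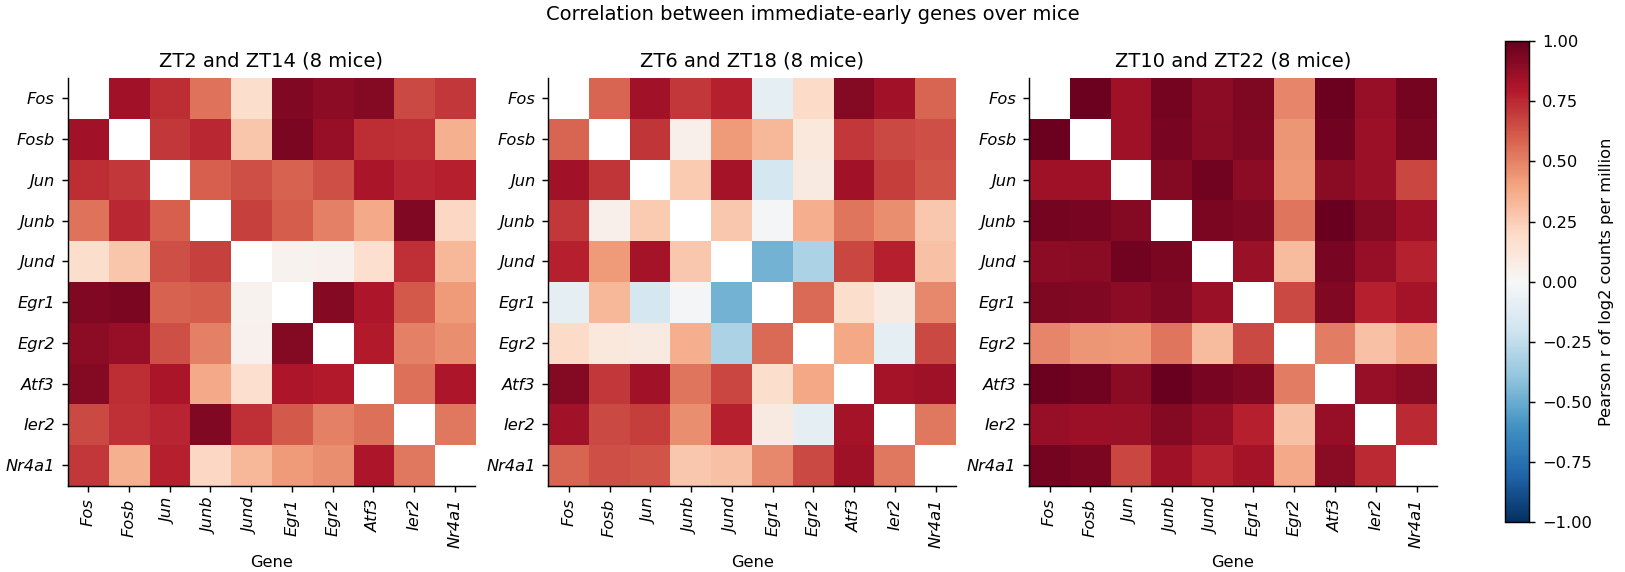
Pearson r between members over 8 mice (4 of each genotype) within ZT2 and ZT14, ZT6 and ZT18, and ZT10 and ZT22, on log2 CPM, with the scale from -1 to 1. At ZT10 and ZT22 all 45 pairs are positive, with the row of Egr2 the palest, and at ZT6 and ZT18 Jund with Egr1 is the lowest at -0.473.

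The comparison of mutants with controls asked whether the members depended on Bmal1 in these cells. All 10 were higher in mutants by the fitted value, from 0.05 (Egr2) to 0.38 (Fosb) on the log2 scale. The value of Egr2 turned negative with the i5 index as a covariate (-0.29) and without the 3 libraries numbered apart (-0.061). With single libraries left out it ranged from -0.075 to 0.16. No member passed adjustment, by edgeR or DESeq2, beside 0.271% of genes called by edgeR. Of the members, 5 (Fosb, Jun, Jund, Egr1 and Ier2) had an unadjusted p under 0.05, against 6.95% of genes, and 4 did by DESeq2. By edgeR, 8 did without control ZT22 replicate 1 (1180 genes in all) and 3 without mutant ZT10 replicate 1 (984 genes). Jun came nearest, at 1.24-fold (log2 0.31 ± 0.0952, adjusted p = 0.282 by edgeR). Jund was 1.21-fold higher (adjusted p = 0.52 by edgeR), Ier2 1.20-fold (adjusted p = 0.523) and Fosb 0.38 higher on the log2 scale (adjusted p = 0.561). The members' median was 0.272, beside 0.00329 over all genes. Without the filter on low reads, 4 members were called, Fosb, Jun, Egr1 and Atf3, against 0.56% of 25174 genes. Their fitted log2 values hardly moved, at 0.380, 0.307, 0.285 and 0.343, beside 0.381, 0.309, 0.286 and 0.344 in the main fit. These calls thus came without a larger difference.

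The genotype difference was also fitted in each set of libraries. In the 16 libraries of ZT2, ZT10, ZT14 and ZT22 all 10 members were higher in mutants, by 0.19 (Nr4a1) to 0.49 (Fosb) on the log2 scale, and the smallest adjusted p was 0.642, for Jun (edgeR). In the 8 of ZT6 and ZT18, Jund was 0.28 and Jun 0.20 higher, Junb and Egr1 were at -0.06 and -0.07, and Egr2 was at -0.72 (adjusted p = 0.74). At ZT6 and ZT18 Egr2 had 316, 214, 378 and 249 reads in controls and 225, 87, 163 and 213 in mutants. The difference between the sets, as an interaction term, gave 0 members and 0% of genes by edgeR. Egr2 was the 1 member with an unadjusted p under 0.05 (log2 -1.15 ± 0.385, adjusted p = 1 by edgeR), against 4.38% of genes, and DESeq2 also called 0 members with 1 under an unadjusted 0.05.

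A 24-h rhythm was sought within each genotype with a Python implementation of meta2d, the test used in the study, on the deposited reads. Its order of tied time points was matched to p-values from the study's own run. With ties kept instead, 0 genes had q under 0.6 in either genotype. No member had p under 0.05 in controls, against 2.43% of genes, or q under 0.6, the study's threshold, against 0.31%. None did in mutants, against 2.27% and 0.0387%. Jund in mutants had the smallest p of the members, 0.205. A 24-h cosine takes opposite values at times 12 h apart. A pattern alike at such times, as Fos had, could therefore not be found by this test or by the comparison that follows. Neither result bears on such a pattern. The difference in 24-h rhythm between genotypes, from cosine and sine terms in edgeR, was called for 0 members and 0% of genes, with 0 members and 4.26% of genes at an unadjusted p under 0.05, and DESeq2 called 0 members with 0 at an unadjusted 0.05.

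Other genes of the pathway were taken as lists, and these were chosen with earlier results of these data known. Beside the counts that follow, 7.21% of all genes were higher and 11.4% lower at ZT6 and ZT18, and 1.54% differed across the other 4 time points. Of 38 tested other immediate-early genes, 22 were higher and 3 lower at ZT6 and ZT18, with a median of 0.438 on the log2 scale. Cyr61, a matricellular ligand, was higher (log2 1.13, adjusted p = 0.000261, edgeR), as were Hes1, a target of Notch (log2 1.05), and Cebpd, a bZIP factor of inflammation (log2 1.04), whereas Tnfaip3, an inhibitor of NF-kB that microglia express, was lower (log2 -1.05, adjusted p = 0.000117). Of the 38, 10 differed across ZT2, ZT10, ZT14 and ZT22, Ctgf, Zfp36, Sgk1, Nfkbiz, Cyr61, Csrnp1, Btg2, Errfi1, Nfkbia and Klf2. Among 5 tested relatives and corepressors of the EGR and NR4A families, 3 were higher at ZT6 and ZT18. Nr4a2 rose from a median of 221.5 reads to 774 (log2 1.34, adjusted p = 7.16e-06, edgeR), Nr4a3 from 148.5 to 334 (log2 1.08, adjusted p = 0.0112) and Nab1, a corepressor of EGR proteins, from 685 to 881 (log2 0.36, adjusted p = 0.00151).

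Of 19 AP-1 and ATF partners 5 were higher and 4 lower at ZT6 and ZT18, and none differed across the other 4 time points. Among the lower ones were Batf3 (log2 -4.79), Maf (log2 -2.33), which is known in microglia and macrophages, and Creb5 (log2 -1.23), all called by edgeR. Of 15 phosphatases and inhibitors that feed back on MAP kinases, 6 were higher and 0 lower, among them Dusp5 (log2 1.33), Dusp1 (log2 0.90, a median of 5657 reads against 3131), Spry4 (log2 0.87) and Spry1 (log2 0.77). Dusp8 and Dusp5 differed across the other 4 time points. Of 25 kinases and SRF, TCF and MRTF factors, 4 were higher and 1 lower, with a median of 0.00812. The lower was the kinase Rps6ka1 (log2 -1.05), and Srf itself was higher (log2 0.39, adjusted p = 0.0361, edgeR), as were its partner Elk4 (log2 0.37) and the kinase Rps6ka3 (log2 0.34). Of 14 heat-shock genes 4 were higher, Hspb1 (log2 0.66), Hspa1a (log2 0.59), Hsp90ab1 (log2 0.31) and Bag3 (log2 0.30), and Hsph1 and Dnajb1 differed across the other 4 time points. In none of these lists was a gene called between genotypes.

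At ZT6 and ZT18, where 7 members were called higher, markers of cell types differed too. All 10 microglia markers were lower (median log2 -3.81; Cx3cr1, -4.12, Csf1r, -4.08, Tmem119, -4.03, C1qa, -3.91), as were 9 of 10 astrocyte (median -1.49; Gfap, -1.97), 7 of 9 oligodendrocyte (median -1.88; Ermn, -2.31) and 9 of 10 neuron markers (median -2.41; Rbfox3, -3.67), 5 of 7 red blood cell markers (median -0.58; Hbb-bt, -0.76) and all 13 mitochondrially encoded genes (median -1.55; mt-Nd1, -1.68). Higher were 9 of 10 pericyte and smooth muscle markers (median 0.542; Myh11, 1.39, Acta2, 1.67) and 8 of 10 endothelial markers (median 0.353; Kdr, 0.59, Cdh5, 0.53). In summed reads, astrocyte markers lay between 4790 and 7992 there and between 11019 and 21922 elsewhere, oligodendrocyte markers between 4975 and 8050 and between 7925 and 21609, neuron markers between 375 and 634 and between 575 and 2198, red blood cell markers between 1498 and 4983 and between 2440 and 9116, and pericyte and smooth muscle markers between 14391 and 23620 and between 8939 and 17809. Mog, which marks mature oligodendrocytes, was at 0 in all 8. Of the cell type lists, endothelial markers had the highest sum in every library. The part of cell composition in the higher levels of the 7 members called at ZT6 and ZT18 was not tested.

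Across the other 4 time points the picture of cell types was different. None of 10 microglia, 10 astrocyte, 10 neuron and 10 pericyte and smooth muscle markers differed with time, while 1 of 10 endothelial (Slc2a1), 3 of 9 oligodendrocyte (Mal, Mbp and Mobp), 1 of 7 red blood cell (Hbb-bs) and 3 of 13 mitochondrially encoded genes did. Microglia markers summed to 13303 to 27587 reads at ZT2 and ZT14 and to 14812 to 35335 at ZT10 and ZT22, ranges that overlapped, and pericyte and smooth muscle markers to 8939 to 13908 and to 11984 to 17809. Neuron markers summed to 1145 to 2198 reads (median 1470) at ZT2 and ZT14 and to 575 to 1524 (median 807) at ZT10 and ZT22. Oligodendrocyte markers summed to 11419 to 21609 (median 14382.5) and to 7925 to 14014 (median 9232) in the same order. Both medians were lower at ZT10 and ZT22, with ranges that overlapped, as were those of endothelial (106216 and 95657) and red blood cell markers (4746.5 and 3281). Medians of microglia markers (21288.5 and 29456) and of pericyte and smooth muscle markers (11037.5 and 15562) were higher there. Astrocyte markers had medians of 13892.5 and 14009. The members called in single pairs of these time points were higher at ZT10 and ZT22, and the part of cell composition in this was not tested. Mitochondrially encoded genes summed to 179107 to 501211 reads at ZT2 and ZT14 and to 143261 to 292887 at ZT10 and ZT22.

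The genes most like the members were found by their Pearson r, over 24 libraries, with the mean of the members' standardized log2 CPM. The 10 nearest that are no members were Zfp36 (r = 0.956), Ppp1r15a (0.937), Btg2 (0.92), Atf4 (0.897), Ifrd1 (0.892), Nr4a2 (0.886), Errfi1 (0.881), Socs3 (0.857), Pnrc1 (0.852) and Brd2 (0.852). This r includes the difference between time points. Within the 8 libraries of ZT6 and ZT18 it was 0.363 for Zfp36, 0.745 for Ppp1r15a, 0.871 for Btg2, 0.941 for Atf4, 0.476 for Nr4a2 and 0.148 for Brd2. Zfp36 encodes a protein that promotes decay of short-lived mRNAs, and had a median of 2869 reads at ZT2 and ZT14, 4812.5 at ZT6 and ZT18 and 5559.5 at ZT10 and ZT22. Ppp1r15a, a phosphatase subunit of the stress response, had 1316, 3020 and 2546 in the same order, and Atf4, a bZIP factor of that response, 918.5, 1546.5 and 1269. Of the 10 members, 9 ranked within the first 28 of all genes on this scale, which they themselves define, and Egr2 ranked 411th, with r = 0.554.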

How the data were processed

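The authors sequenced stranded total RNA libraries from sorted cells of single mice, aligned the reads to GRCm38 with STAR 2.5.3a, merged lanes with SAMtools 1.3.1, and counted and normalized reads per Ensembl gene with PORT. The deposited values are counts, whole numbers brought by PORT to similar totals, so the depth before normalization is not in them. A gene was tested (15493 were) when 6 libraries of either genotype each held at least 5 reads of it, using edgeR 4.0.16 (R 4.3.3): TMM scaling, quasi-likelihood tests, and a model of time point as a factor plus genotype over all 24 libraries. TMM factors lay between 0.873 and 1.043, and the common coefficient of variation was 42.4%. Rhythms were tested with meta2d (JTK_CYCLE and Lomb-Scargle combined), written anew in Python 3.11.15, so values can differ from those of the R package. The tests were tried on simulated data first. Lengths and positions are from GENCODE vM21 and promoters from RefSeq. Correlations used SciPy 1.17.1, with exact permutations for 8 libraries. DESeq2 1.42.0, other scalings and filters, the i5 index, a replicate block and leaving out libraries were alternatives. The members, lists and comparisons were chosen with earlier results of these data known, and the 6 pairs of time points were added after the data were seen. Named genes were the members, per list up to 4 with the largest change among those called, and the 10 nearest in pattern. The order given to time points that tie on the reference cosine was matched to p-values from the authors' own rhythm run. Their rhythm statistics were not used otherwise. Some list genes are not reported here by name.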

Additional observations from a re-analysis of the deposited data

Results flagged for a closer look

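Dixon's test was run on the deposited reads of each member in the 4 libraries of ZT6 and ZT18 and in the 8 of the other time points, for each genotype, which gave 40 groups, and chance would flag about 1 in 20. It flagged 2. Egr1 had 8724 reads in mutant ZT6 replicate 1, where the nearest of the other 3 mutant libraries of ZT6 and ZT18 had 8169, so the gap was 0.855 of the group's range. Nr4a1 had 4132 reads in control ZT22 replicate 1, where the next of the 8 control libraries had 2000, a gap of 0.602 of the range.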

How the results depend on the processing

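Replicate numbers did not pair the mice (correlations of deviations between genotypes from -0.00866 to 0.0149). A replicate block left 0 members called for genotype, 8 for ZT6 and ZT18 and 9 for time, and 5 for ZT22 against ZT2, where 0 were called without it, and moved no other count of members by over 1.5 times. Counts that moved by more than 1.5 times follow, and the cause was not tested. Genes called for genotype (42) became 99 with DESeq2, 141 with no filter, 7 with the i5 index, 9 without the 3 libraries numbered apart and 3 at ZT6 and ZT18 alone, and members called 4 with no filter. For ZT6 and ZT18 the i5 index left 4 members and 595 genes (2890 before), and 10 reads in every library left 1877 genes, with fewer genes tested. For time among the other 4 points, genes (238) became 516 with DESeq2, 694 with no filter and 144 without the 3 libraries. ZT6 against ZT18 (4 genes) gave 10 with DESeq2 and, with no filter, 70 genes and 1 member. Members called for ZT10 against ZT2 became 9 with no filter and 3 without the 3 libraries, for ZT10 against ZT14, 9, 1 and, with the i5 index, 3, for ZT22 against ZT14, 8 and 1, for ZT14 against ZT2, 2 with no filter, and for ZT22 against ZT2, 5 with DESeq2, 10 with no filter and 4 with 10 reads in every library. The genotype difference by numbering gave 1 gene with DESeq2 and, with no filter, 18 genes and 1 member, and the rhythm difference 1 gene with DESeq2, 52 with no filter and 1 with the i5 index. Rhythmic genes at q under 0.6 in controls (48) became 0 with ties kept, 133 with an edgeR cosinor and 103 with its replicate block, and in mutants (6) 24 after TMM, 0 with ties kept, 45 with 10 reads in every library, 30 with the cosinor and 23 with its replicate block, where 1 member had p under 0.05 by the cosinor. The median correlation at ZT6 and ZT18 was 0.402 without TMM.

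Leaving out each library in turn gave 25 to 68 genes for genotype, 2621 to 2947 for ZT6 and ZT18, 136 to 287 for time, 0 to 5 for ZT6 against ZT18, 0 to 1 for the rhythm difference, 0 to 57 rhythmic genes in controls and 0 to 10 in mutants. Members called ranged from 0 to 8 for ZT10 against ZT2, 0 to 6 for ZT10 against ZT14, 0 to 9 for ZT22 against ZT2 and 4 to 9 for ZT22 against ZT14. For ZT10 against ZT2 the count was 3 without control ZT2 replicate 1 or control ZT10 replicate 1, 1 without control ZT2 replicate 2, and 8 without control ZT22 replicate 2 or mutant ZT10 replicate 2. For ZT10 against ZT14 it was 1 without control ZT10 replicate 1 or mutant ZT10 replicate 1, and 3 without control ZT14 replicate 1 or mutant ZT14 replicate 1. For ZT22 against ZT2 it was 8 without mutant ZT2 replicate 1 and 4 without mutant ZT10 replicate 2. The fitted genotype difference at ZT6 and ZT18 alone was -0.060 for Junb, -0.070 for Egr1 and -0.72 for Egr2, and that of Egr2 was -0.29 with the i5 index, -0.061 without the 3 libraries, and -0.075 to 0.16 with single libraries left out. Egr2 at ZT6 and ZT18 was 0.34 with the i5 index. Over all alternatives, 559 values of counts and medians stayed within the limits set for them (1.5 times for a count) and 91 moved, while 629 single-gene values kept their direction and side of the threshold, 5 lost the call, 15 gained it and 11 changed sign.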
